A study of Homo sapiens with 6 samples.

Results

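The ISWI and CHD families are ATP-driven chromatin remodellers, and 10 of their genes were followed through a pooled CRISPR knockout screen. They were SMARCA5, SMARCA1, BPTF, BAZ1A, BAZ1B, BAZ2A, CHD1, CHD2, CHD7 and CHD8, picked by gene name with earlier results of these data known. All 10 were among the 7093 genes of the guide count table, each with 10 guides, so that 100 of 71626 guides were theirs. The cells were HAP1, a human line of leukaemic origin that carries a nearly haploid genome. There were 2 samples of SETD2-mutant HAP1 cells, 2 of parental HAP1 cells and 2 of the guide library. Each line was infected at a multiplicity of infection of 0.7, divided into replicates and kept under puromycin for 12 doublings. The labels name the mutant line by its genotype only and give neither the allele nor the number of clones, and the origin of the library samples is not stated. Replicates of a line were split from 1 transduction, so no p-value here covers the spread between transductions. The p-values of single guides, and those of tests on gene means or summed counts, cover the spread between splits.

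Remodellers of the ISWI family use the energy of ATP to slide nucleosomes and space them evenly. SMARCA5 (SNF2H) and SMARCA1 (SNF2L) are the alternative ATPases, and larger partners decide where they work. BAZ1A pairs with SMARCA5 in the ACF and CHRAC complexes, BAZ1B in the WICH complex at sites of replication, and BAZ2A in NoRC, which silences ribosomal RNA genes. BPTF is the large subunit of NURF and binds histone H3 trimethylated at lysine 4. The CHD proteins carry paired chromodomains and their own ATPase. CHD1 and CHD2 act on transcribed genes, whereas CHD7 and CHD8 belong to a separate subfamily and are known for developmental syndromes. SETD2 places trimethylation at lysine 36 of H3 (H3K36) over transcribed gene bodies, and in budding yeast Chd1 and an ISWI complex keep nucleosomes in place over genes marked by the equivalent enzyme, Set2.

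Total counts were 25082426 and 33878004 for SETD2-mutant cells, 38197301 and 34003792 for parental cells, and 38428425 and 34679351 for the library. The 100 guides were well covered, with median counts of 336.5 and 474 in SETD2-mutant cells, 606.5 and 520 in parental cells and 882.5 and 803 in the library. No guide of these genes had a count of 0 in any sample, and the lowest counts were 8 in SETD2-mutant, 18 in parental and 168 in library samples. Replicates were compared over these guides by chi-square, which per degree of freedom was 9.03 for SETD2-mutant, 13.1 for parental and 1.27 for library samples, where counting error alone gives about 1. Intervals of counting error would therefore understate the spread in the cell lines.

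Guide counts were compared with edgeR, and the guides of a gene were combined by robust rank aggregation (RRA), which asks whether they crowd one end of the ranking of all guides. The RRA p-value of a gene thus measures how its guides rank together, and not the spread between samples. A gene's change is its guides' average log2 fold change, given with the SE (standard error) across those guides. A negative change means that cells carrying the guides became rarer relative to the other guides. Depletion or enrichment was called below an adjusted p of 0.05, by Benjamini-Hochberg over the 7090 genes tested. Levels are geometric means over the 10 guides of a gene in CPM, that is, counts scaled to a common library size.

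Over 12 doublings, cells carrying guides to several ISWI genes became rarer in both lines or in SETD2-mutant cells, as did those with guides to CHD1 in SETD2-mutant cells. In SETD2-mutant cells 5 of the 10 genes were called depleted against library, namely SMARCA5, BAZ2A, BPTF, CHD1 and BAZ1B, against 9.04% of all genes tested. In parental cells 2 were called depleted, BPTF and SMARCA5, against 9.9% of all genes. None of the 10 was called enriched in either line by edgeR and RRA, where 1.11% of all genes were called enriched in each line. At an unadjusted exact RRA p under 0.05, SMARCA1 leaned toward enrichment in both lines (p = 0.00102 in SETD2-mutant and p = 0.0104 in parental cells). The share of all genes under that unadjusted limit was not counted. Limma on gene means and counts summed per gene called SMARCA1 enriched in both lines, but those tests also called many other genes enriched, at 23.8% and 30.2% of all genes in SETD2-mutant cells and 23.8% and 29.5% in parental cells. The median change of the 10 genes was −0.73 in SETD2-mutant and −0.43 in parental cells, where the medians over all genes were −0.05 and −0.01. Both comparisons share the library samples, so their results are not independent.

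The samples of the cell lines separated from the library for most of these genes. Both SETD2-mutant samples lay below both library samples for 9 of the 10 genes, as they did for 49.2% of all genes. Both parental samples lay below both library samples for 8 of the 10 genes, as they did for 45.6% of all genes. Of single guides, 57 of the 100 were lower in SETD2-mutant cells than in the library at an adjusted p under 0.05 by edgeR, against 23.7% of all guides, and 10 were higher, against 22.2%. In parental cells 43 of the 100 were lower than in the library, against 21.1% of all guides, and 8 were higher, against 18.9%. Guides to 1 gene share their target, so these shares rest on 10 genes and not on 100 independent values.

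**Figure D1:**
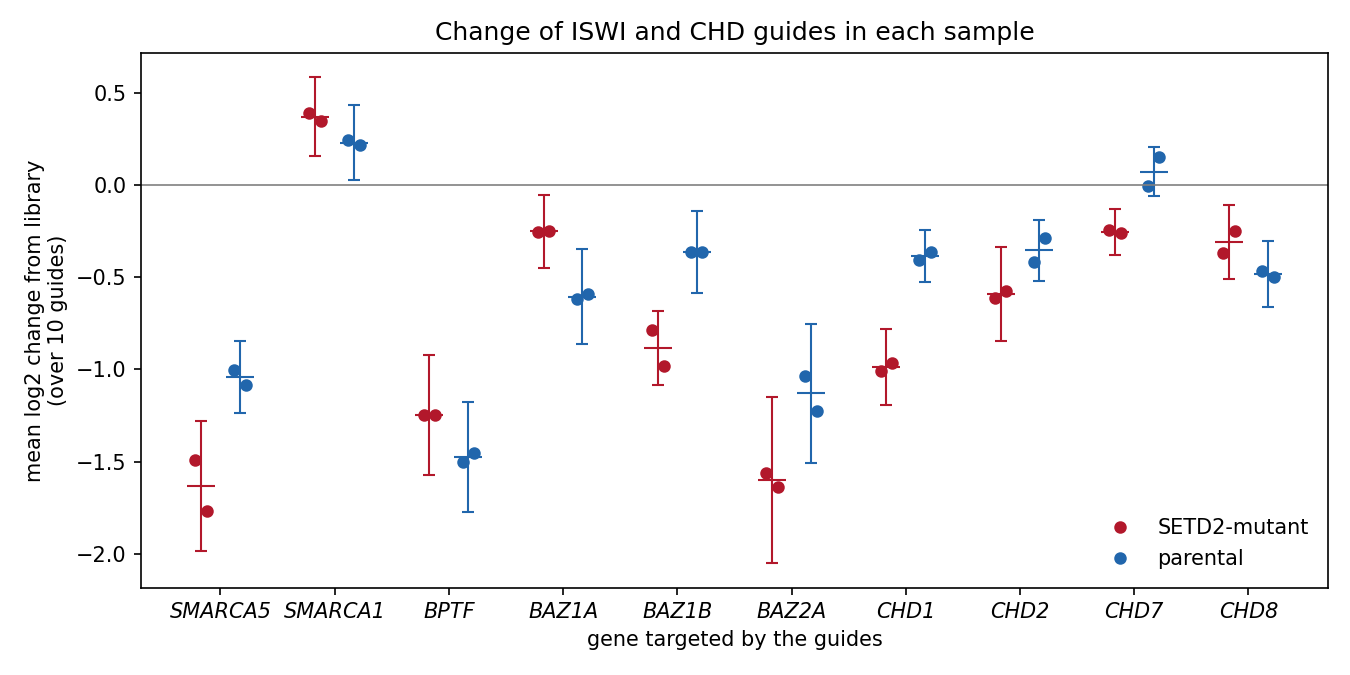
Mean log2 change from the mean of the library samples (vertical axis) for the 10 guides of each gene (horizontal axis). Points are the 2 SETD2-mutant samples (red, left) and the 2 parental samples (blue, right), dashes are their means, and bars are the SE over guides. CHD1 stands at −1.01 and −0.96 in SETD2-mutant cells and at −0.41 and −0.36 in parental cells, whereas SMARCA1 is above 0 in all 4 samples.

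Of the ISWI ATPases, SMARCA5 (chromosome 4, 143513702 to 143557486, GRCh38) was depleted in both lines. Its guides averaged 5.30 and 4.37 CPM in SETD2-mutant cells, 7.44 and 7.01 CPM in parental cells and 14.7 and 15.0 CPM in the library. The levels of the 3 groups did not overlap, and SETD2-mutant cells were the lowest. SMARCA5 was depleted against library by −1.63 in SETD2-mutant cells (SE 0.353, adjusted p = 0.000447 by edgeR and RRA) and by −1.04 in parental cells (SE 0.195, adjusted p = 0.00143 by edgeR and RRA). All 10 guides were below 0 in each line. They spread from −4.32 to −0.22 in SETD2-mutant and from −2.27 to −0.33 in parental cells. The same guide was lowest in both lines, and a different guide was highest in both.

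Between the lines, SMARCA5 stood at −0.60 (SE 0.180), with 9 of 10 guides lower in SETD2-mutant cells, and was not called by edgeR and RRA (exact RRA p = 0.0954, adjusted p = 0.829). A single guide at −2.05 was far from the rest, which lay between −0.69 and 0.10, and 3 of the 10 guides passed on their own. Counts summed per gene (adjusted p = 0.00170) and limma on gene means (adjusted p = 0.00488) did call SMARCA5 depleted between the lines, but those tests also called 21.2% and 22.4% of all genes depleted. With the dropout of genes named RPL or RPS made equal in the lines (equal ribosomal dropout), SMARCA5 stood at −0.36 (adjusted p = 1 by edgeR and RRA).

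SMARCA1 (chromosome X, 129446506 to 129523490), the other ISWI ATPase, was not called depleted in either line. Its guides averaged 21.2 and 20.6 CPM in SETD2-mutant cells, 19.1 and 18.8 CPM in parental cells and 16.2 CPM in each library sample. All 4 cell samples thus lay above the library, with the SETD2-mutant samples highest. The change from library was 0.38 (SE 0.214, 9 of 10 guides up) in SETD2-mutant and 0.24 (SE 0.204, 7 of 10 up) in parental cells, and neither was called by edgeR and RRA (adjusted p = 0.0702 and 0.243). Of its guides, 5 passed on their own above library in SETD2-mutant and 4 in parental cells, while 1 and 2 passed below. The positive sign depends on the scaling. With scaling on the 100 guides labelled dummyguide, a class whose meaning the labels do not state, the medians over all genes moved to −0.97 in SETD2-mutant and −0.79 in parental cells. SMARCA1 then stood at −0.54 in each line and so above those medians. Between the lines SMARCA1 stood at 0.14 (SE 0.116), against −0.0073 with dummyguide scaling, and was not called (adjusted p = 1 by edgeR and RRA).

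BPTF (chromosome 17, 67825503 to 67984378), the histone-reading subunit of NURF, had the most negative change of the 10 genes in parental cells. Its guides averaged 5.94 and 5.96 CPM in SETD2-mutant cells, 4.99 and 5.17 CPM in parental cells and 14.3 and 14.0 CPM in the library. Both lines were far below the library, and here the parental samples were the lower ones. BPTF was depleted by −1.25 in SETD2-mutant cells (SE 0.327, 9 of 10 guides down, adjusted p = 0.00643 by edgeR and RRA) and by −1.46 in parental cells (SE 0.298, 10 of 10 down, adjusted p = 7.53e-05 by edgeR and RRA). With 0.1 in place of 0.25 as the RRA rank share limit, these calls were lost (adjusted p = 0.0737 and 0.244), as was that of SMARCA5 in parental cells (adjusted p = 0.840).

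Between the lines, BPTF stood at 0.22 (SE 0.237), with 5 guides up and 5 down and a median guide of 0.03. The test of edgeR and RRA gave no call (adjusted p = 1). The guides disagreed widely, from −0.71 to 1.31, and the change was −0.0099 when counts were summed per gene, 0.07 with dummyguide scaling and 0.40 at equal ribosomal dropout.

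The BAZ genes, which encode partners of the ISWI ATPases, differed from one another. BAZ2A (chromosome 12, 56595596 to 56638318), the NoRC subunit, averaged 5.05 and 4.79 CPM in SETD2-mutant cells, 7.28 and 6.37 CPM in parental cells and 14.8 and 15.0 CPM in the library. All 10 guides were below the library in both lines. BAZ2A was called depleted in SETD2-mutant cells (−1.60, SE 0.450, adjusted p = 0.00236 by edgeR and RRA), a call lost at a rank share limit of 0.1 (adjusted p = 0.312). At −1.10 (SE 0.376) in parental cells, it was not called (adjusted p = 0.238 by edgeR and RRA), although it was at a rank share limit of 0.5 (adjusted p = 0.0207). Its guides were uneven. A single guide, HZD_EPI_00646, stood at −5.06 in SETD2-mutant and −4.05 in parental cells, and the next lowest stood at −2.81 and −1.80. Between the lines BAZ2A stood at −0.50 (SE 0.169, 8 of 10 guides down) and was not called (adjusted p = 0.970 by edgeR and RRA). At equal ribosomal dropout it stood at −0.27.

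BAZ1B (chromosome 7, 73440406 to 73522293), the WICH subunit, was called depleted against library in SETD2-mutant cells and not in parental cells. Its guides averaged 19.8 and 17.3 CPM in SETD2-mutant cells, 26.6 CPM in each parental sample and 34.4 and 34.0 CPM in the library. The change from library was −0.88 in SETD2-mutant cells (SE 0.202, adjusted p = 0.000122 by edgeR and RRA) and −0.36 in parental cells (SE 0.222, adjusted p = 0.527 by edgeR and RRA). In SETD2-mutant cells 9 of 10 guides passed on their own below the library, against 4 of 10 in parental cells. The test between the lines did not separate them in the fit of all samples, with a change of −0.52 (SE 0.196, 9 of 10 guides down, exact RRA p = 0.00642, adjusted p = 0.247). Without SETD2-mutant replicate 1 BAZ1B was called depleted between the lines, at −0.62 (adjusted p = 0.0223 by edgeR and RRA), and without SETD2-mutant replicate 2 it stood at −0.43 (adjusted p = 0.335).

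BAZ1A (chromosome 14, 34752731 to 34875360), the ACF and CHRAC subunit, was called in no comparison by edgeR and RRA. Its guides averaged 9.13 and 9.16 CPM in SETD2-mutant cells, 7.10 and 7.22 CPM in parental cells and 10.9 CPM in each library sample. The parental samples were therefore the lowest, and the SETD2-mutant samples lay between them and the library. The change from library was −0.24 (SE 0.198) in SETD2-mutant and −0.58 (SE 0.258) in parental cells. Between the lines it was 0.34 (SE 0.200, 7 of 10 guides up), the most positive of the 10 genes, and the test of edgeR and RRA left it uncalled (adjusted p = 0.957). That mean was carried by a few guides, since the highest stood at 1.66 and the median guide at 0.17, and it was 0.19 with dummyguide scaling.

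CHD1 (chromosome 5, 98853985 to 98929007), which spaces nucleosomes over transcribed genes, was the only 1 of the 10 genes called between the lines by edgeR and RRA. The comparison of SETD2-mutant with parental cells asks for gene knockouts that cost the mutant line more than the parental one, and the title of the series places it in the setting of H3K36 methylation. CHD1 guides averaged 14.3 and 14.8 CPM in SETD2-mutant cells, 21.7 and 22.4 CPM in parental cells and 28.8 CPM in each library sample. The 3 groups did not overlap, and the replicates of each were close together. Between the lines CHD1 changed by −0.59, a depletion in SETD2-mutant cells (SE 0.183, 9 of 10 guides lower, adjusted p = 0.00842 by edgeR and RRA). In all, 1 of the 10 genes was called depleted between the lines, where 1.28% of all genes were, and 0 were called enriched, where 1.03% were. At an unadjusted RRA p under 0.05, CHD1 and BAZ1B passed for depletion and none for enrichment, but the share of all genes passing there was not counted. Limma on gene means called 6 of the 10 depleted and 2 enriched, against 22.4% and 12.8% of all genes, and counts summed per gene called 6 depleted and 3 enriched, against 21.2% and 20%. By size, CHD1 held rank 363 of 7090 from the most negative change, next to SMARCA5 at rank 359.

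Against the library, CHD1 was depleted by −0.98 in SETD2-mutant cells (SE 0.204, 10 of 10 guides down, adjusted p = 0.0105 by edgeR and RRA). The parental value of −0.38 (SE 0.142, 8 of 10 guides down) was not called (adjusted p = 1 by edgeR and RRA), although it was with dummyguide scaling (−1.16, adjusted p = 0.0113). With that scaling the median over all genes in parental cells was −0.79. At a rank share limit of 0.1 the call in SETD2-mutant cells was lost too (adjusted p = 0.306).

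The 10 CHD1 guides spread from −1.34 to 0.66 between the lines. The lowest, HZD_EPI_01142, had counts of 200 and 319 in SETD2-mutant cells, 884 and 702 in parental cells and 1490 and 1354 in the library. The highest, HZD_EPI_01145, had counts of 292 and 527 in SETD2-mutant cells, 290 and 325 in parental cells and 740 and 632 in the library. It was the only CHD1 guide above 0 between the lines, and it was also the most depleted CHD1 guide in parental cells, at −1.10. Of the other 9 guides, 7 passed on their own below 0, and HZD_EPI_01145 passed above 0 (adjusted p = 0.0458 by edgeR). Across all guides, 12.8% passed below 0 and 11.5% above 0 between the lines, so that single guides often moved in either direction.

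**Figure D2:**
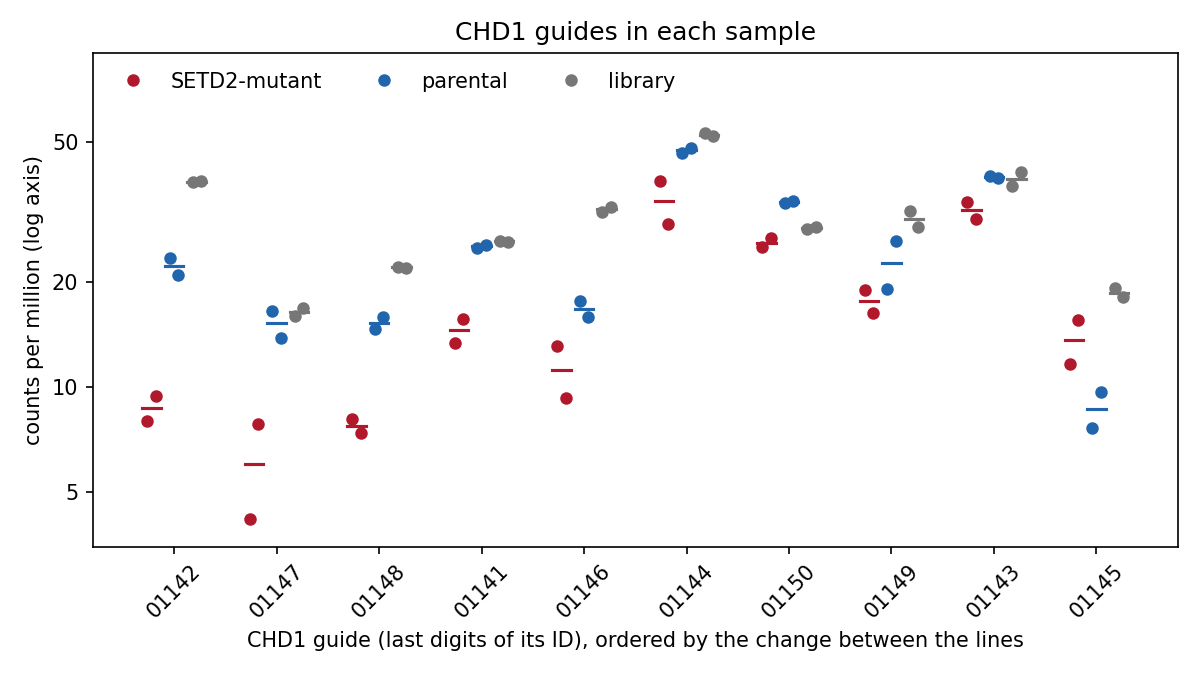
CPM on a log axis for each of the 10 CHD1 guides (horizontal axis, ordered by their change between the lines). Points are the 2 samples of SETD2-mutant cells (red), of parental cells (blue) and of the library (grey), and lines are their means. For 9 guides the SETD2-mutant mean is below the parental mean, and for the rightmost guide it is above.

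The call of CHD1 between the lines held in 17 of 20 alternatives, which reuse the same counts and are not independent. It was lost without SETD2-mutant replicate 2 (−0.63, adjusted p = 0.124 by edgeR and RRA), with a rank share limit of 0.1 (adjusted p = 0.0665) and when the dropout of ribosomal protein genes was made equal in the lines (−0.45, adjusted p = 0.0568). Equal dropout was set on the 63 genes named RPL or RPS, taken to mark general loss of essential genes. They were matched by name, which can take in genes that do not encode ribosomal proteins. Their median change from library was −3.87 in SETD2-mutant and −3.30 in parental cells. Their median between the lines was −0.42. To make the dropout equal, every SETD2-mutant change from library was multiplied by 0.854, the ratio of the parental to the SETD2-mutant median. The call of CHD1 did not hold under this rescaling. The 3 genes whose mean changes from library were closest to those of CHD1 over the 4 cell samples were C6orf25, HCN4 and HFE2, at Euclidean distances of 0.118, 0.132 and 0.148.

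CHD2 (chromosome 15, 92900324 to 93027996), the closest relative of CHD1, was not called in any comparison by edgeR and RRA. Its guides averaged 20.1 and 20.6 CPM in SETD2-mutant cells, 22.9 and 25.1 CPM in parental cells and 31.0 and 30.3 CPM in the library. The change from library was −0.59 (SE 0.255) in SETD2-mutant cells and −0.35 (SE 0.164) in parental cells, and between the lines it was −0.24 (SE 0.219, 7 of 10 guides down, adjusted p = 0.801). The guides went both ways between the lines, with 4 passing on their own below 0 and 2 above, from −1.53 to 1.03. The mean was −0.15 at equal ribosomal dropout and −0.38 with dummyguide scaling.

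CHD7 (chromosome 8, 60678740 to 60868028), the gene of CHARGE syndrome, hardly moved in parental cells. Its guides averaged 25.3 and 25.0 CPM in SETD2-mutant cells, 29.8 and 33.2 CPM in parental cells and 30.2 and 29.8 CPM in the library. Only the SETD2-mutant samples lay apart from the library, and the parental samples overlapped it. The change from library was −0.25 (SE 0.124) in SETD2-mutant cells and 0.08 (SE 0.132) in parental cells, a value that was −0.70 with dummyguide scaling and −0.0071 without parental replicate 2. Between the lines it was −0.33 (SE 0.105), with 9 of 10 guides down, and was not called (adjusted p = 0.728 by edgeR and RRA). In SMARCA5, BAZ1B, CHD1 and CHD7 9 of 10 guides were down between the lines, and 3.67% of all genes with 10 guides had 9 or 10 down.

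CHD8 (chromosome 14, 21385199 to 21456123), a relative of CHD7 that is mutated in autism, had a small positive value between the lines. Its guides averaged 21.7 and 23.5 CPM in SETD2-mutant cells, 20.2 and 19.8 CPM in parental cells and 27.6 and 28.3 CPM in the library. Both lines were below the library, parental cells more so. The change from library was −0.30 (SE 0.201) in SETD2-mutant cells and −0.48 (SE 0.177) in parental cells, and between the lines it was 0.17 (SE 0.0669, 8 of 10 guides up). That value was 0.11 without SETD2-mutant replicate 2 and 0.02 with dummyguide scaling. CHD8 was not called in any of these comparisons (adjusted p for depletion = 1 in SETD2-mutant cells, 0.558 in parental cells and 1 between the lines, by edgeR and RRA). With dummyguide scaling it was called depleted in parental cells (−1.25, adjusted p = 0.00698), and CHD2 (−1.51, adjusted p = 0.000470) and CHD7 (−1.18, adjusted p = 0.0446) in SETD2-mutant cells.

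**Figure D3:**
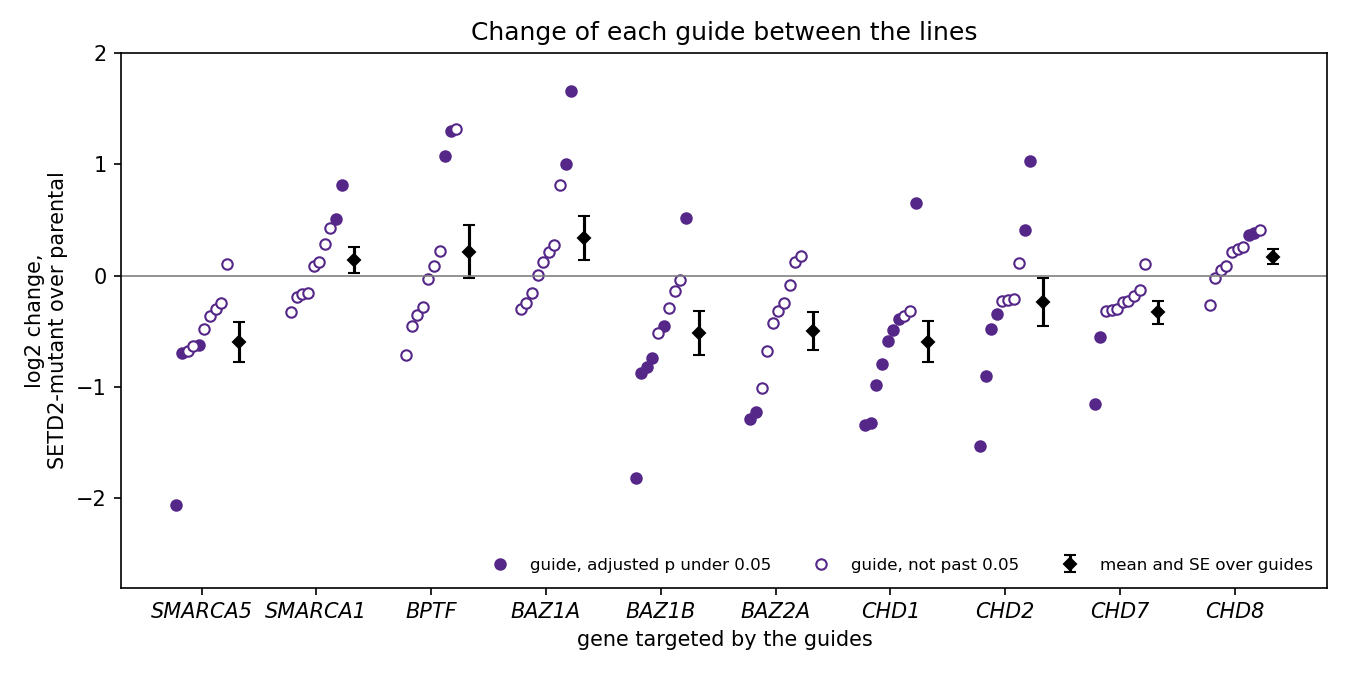
Log2 change of each guide in SETD2-mutant over parental cells (vertical axis), ordered within each gene (horizontal axis). Filled points passed an adjusted p of 0.05 on their own, open points did not, and black diamonds with bars are the mean and SE over the 10 guides. CHD1 has 7 filled points below 0 and 1 above, and BPTF and BAZ1A have guides up to 1.31 and 1.66.

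Between the lines, both SETD2-mutant samples lay below both parental samples for 6 of the 10 genes, against 38.8% of all genes, and above them for 4, against 26.9%. Of the 100 guides, 23 passed below 0, against 12.8% of all guides, and 12 above, against 11.5%. The 10 genes had a median change of −0.28, where the median over all genes was −0.04. The tested genes within 5 Mb of each had median changes between the lines from −0.15 to 0.17. Around CHD1 the median of 13 neighbours was −0.14, and 0 of them were called between the lines.

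Ordered by the change in SETD2-mutant cells against library, the genes ran from SMARCA5 (−1.63) and BAZ2A (−1.60) through BPTF (−1.25), CHD1 (−0.98), BAZ1B (−0.88), CHD2 (−0.59), CHD8 (−0.30), CHD7 (−0.25) and BAZ1A (−0.24) to SMARCA1 (0.38). In parental cells the order was BPTF (−1.46), BAZ2A (−1.10), SMARCA5 (−1.04), BAZ1A (−0.58), CHD8 (−0.48), CHD1 (−0.38), BAZ1B (−0.36), CHD2 (−0.35), CHD7 (0.08) and SMARCA1 (0.24). Most neighbours in these orders differed by less than the sum of their SEs over guides. The exceptions were BAZ1A and SMARCA1 in SETD2-mutant cells, and in parental cells SMARCA5 and BAZ1A, narrowly, and CHD2 and CHD7.

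Among partner subunits of ISWI complexes, 6 of 9 listed genes were measured. Between the lines 1 was depleted and 0 enriched, where 1.28% and 1.03% of all genes were, with a list median of −0.16. The depleted one was RBBP4, a histone-binding subunit that NURF shares with other complexes, at −0.98 (SE 0.660, 7 of 10 guides down, adjusted p = 0.0418 by edgeR and RRA). Its relative RBBP7 stood at −0.45, BAZ2B at 0.24 and POLE3, a histone-fold subunit of CHRAC and of DNA polymerase epsilon, at 0.40, and none of these was called. Against the library 2 of the 6 were depleted in each line, where 9.04% of all genes were in SETD2-mutant and 9.9% in parental cells. RBBP4 was at −3.16 in SETD2-mutant and −2.17 in parental cells, and POLE3 was at −1.26 in SETD2-mutant and −1.66 in parental cells.

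All 6 other CHD genes on the list were measured, and 0 were called between the lines by edgeR and RRA, where their median change was 0.11. At an unadjusted RRA p under 0.05, CHD9 passed for depletion, and CHD1L, CHD3 and CHD6 passed for enrichment. How many of all genes passed at this level was not counted, so no excess can be read from it. CHD9 stood at −0.49 (SE 0.119) with 10 of 10 guides down (adjusted p = 0.118 by edgeR and RRA). CHD3 was at 0.35, CHD1L at 0.27 and CHD6 at 0.15, with adjusted p of 0.286, 0.230 and 0.639 by edgeR and RRA. Against the library 1 of the 6 was depleted in each line, CHD4, the ATPase of the NuRD complex, at −1.03 in SETD2-mutant and −1.10 in parental cells. Of all genes, 9.04% were depleted in SETD2-mutant and 9.9% in parental cells.

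Of 7 factors that work beside these remodellers, 6 were measured and 0 were called between the lines by edgeR and RRA, with a median change of −0.07. CTCF, the insulator protein, stood at −0.61 and SSRP1, a subunit of the histone chaperone FACT, at −0.49, with unadjusted RRA p of 0.0180 and 0.0386 for depletion. Neither held after adjustment (adjusted p = 0.435 and 0.605 by edgeR and RRA). ATRX was at 0.14 and SMARCAD1 at 0.12. Against the library 4 of the 6 were depleted in SETD2-mutant cells and 3 in parental cells, where 9.04% and 9.9% of all genes were. SUPT16H, the other FACT subunit, was at −2.70 in SETD2-mutant and −2.66 in parental cells, SSRP1 at −2.02 in SETD2-mutant and −1.52 in parental cells, and ATRX at −1.12 in SETD2-mutant and −1.26 in parental cells. CTCF was called in SETD2-mutant cells (−1.64, adjusted p = 0.0486 by edgeR and RRA) and narrowly missed in parental cells (−1.04, adjusted p = 0.0529).

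Other remodeller families gave different counts, and these differences were not tested. Of 21 SWI/SNF genes measured, 1 was depleted and 1 enriched between the lines, with a median change of 0.03. These were ACTL6A, depleted, and SMARCB1, enriched, named after their values were seen. Against the library 1 was depleted in SETD2-mutant cells, ACTL6A, and 2 in parental cells, ACTL6A and SMARCB1. Of 29 genes of the INO80, TIP60 and SRCAP complexes, 2 were depleted and 2 enriched between the lines, with a median of −0.28, against 1 and 0 of the 10 ISWI and CHD genes and a median that was also −0.28. The depleted genes were EPC2 and TFPT and the enriched ones INO80C and MORF4L1, also named after their values were seen. Against the library 19 of the 29 were depleted and 0 enriched in SETD2-mutant cells, and 15 were depleted and 2 enriched in parental cells.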

How the data were processed

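Per the labels' protocols, guides were amplified from genomic DNA and sequenced as single-end reads. Raw guide counts were deposited by the authors. The submitters' processing notes name MAGeCK and hg38, and their roles and versions are not given in the sources used here. The filter required an average of at least 30 counts in the library, which kept 71470 guides (56 below it and the 100 dummyguide guides were set aside), and all 100 guides of the 10 genes passed. Counts were scaled by TMM, fitted by group over all 6 samples and tested per guide with glmQLFit (robust) and glmQLFTest of edgeR 4.0.16 in R 4.3.3. RRA was rebuilt from its published description, with a rank share limit of 0.25, an exact null from uniform order statistics, and genes of 3 or more guides. The fit and RRA were tested on simulated data. CPM values used a prior count of 2. Gene positions are from a RefSeq table of GRCh38, in which 6757 of 7090 tested symbols were current.

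Alternatives covered scaling, filters, DESeq2 1.42.0 per guide, limma 3.58.1 on gene means, summed counts, the RRA limit, the samples fitted, a replicate block and each replicate left out. Between the lines, equal ribosomal dropout was a further alternative, with SETD2-mutant changes from library multiplied by 0.854. The members, gene lists and tests were chosen with earlier results of these data known. All 10 members are named, with up to 4 genes each of the ISWI partner, other CHD and linked-factor lists by lowest RRA p between the lines, and any called; the other remodeller lists were planned as counts and medians only. CECR2, POLE4, HMGXB4 and TTF1 were not analysed here. For CHD1, called between the lines, the guides with the lowest and highest change and the 3 nearest genes are also named; single guides of BAZ2A, BAZ1A, BAZ1B and CHD2 were named after their values were seen.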

Additional observations from a re-analysis of the deposited data

Results flagged for a closer look

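CHD1 was called depleted between the lines by edgeR and RRA, with a change of −0.59 in SETD2-mutant relative to parental cells. The call was lost in 3 of 20 alternatives, among them a rank share limit of 0.1 and equal ribosomal dropout. CHD1 stood at −0.98 against library in SETD2-mutant cells and at −0.38 in parental cells.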

How the results depend on the processing

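Of 580 values of single members under the alternatives, 521 kept their direction and their side of the threshold, 45 were called only under the alternative, 8 lost a call and 6 changed sign. The sign changes were BPTF between the lines with summed counts (−0.0099), CHD7 in parental cells with dummyguide scaling (−0.70) and with 1 replicate left out (−0.0071 without parental replicate 2, to 0.15), and SMARCA1 with dummyguide scaling (−0.54 in SETD2-mutant cells, −0.54 in parental cells and −0.0073 between the lines). The cause was not tested.

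Between the lines 1 member was depleted and 0 enriched. Member counts under the alternatives follow. For a rank share limit of 0.1 and for equal essential-gene dropout, the number of all genes depleted is not given here. Summed counts gave 6 and 3, limma on gene means 6 and 2, a rank share limit of 0.1 and equal essential-gene dropout 0 depleted each, and leaving out 1 replicate 0 to 2 depleted. Over all genes, 91 were depleted and 73 enriched, against 1503 and 1417 with summed counts, 1585 and 910 with limma, 124 enriched at equal dropout, and 63 to 89 depleted and 68 to 81 enriched with 1 replicate left out.

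In SETD2-mutant cells against library 5 members were depleted, against 9 with summed counts and 9 with limma, which each also called 1 enriched, and 2 at a rank share limit of 0.1. With dummyguide scaling CHD2 and CHD7 were called depleted as well, and the median over all genes was −0.97. Over all genes, 641 were depleted and 79 enriched, against 2320 and 2138 with summed counts, 2703 and 1690 with limma, and 35 enriched with dummyguide scaling; with 1 replicate left out 50 to 85 were enriched, the fewest without SETD2-mutant replicate 1. In parental cells 2 members were depleted, against 8 with summed counts and 8 with limma, which each also called 1 enriched, 4 with dummyguide scaling (median over all genes −0.79) and 0 at a rank share limit of 0.1. Over all genes, 702 were depleted and 79 enriched, against 2149 and 2092 with summed counts and 2234 and 1689 with limma. For either line, the number of all genes depleted at a rank share limit of 0.1 or with dummyguide scaling is not given here. Leaving out 1 replicate changed no member's call against library.

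Samples of the same replicate number did not deviate together (correlations across guides of −0.0051 for SETD2-mutant with parental, −0.0025 for SETD2-mutant with library and −0.0050 for parental with library samples). The replicate block changed no member's call, with CHD1 at −0.60 (adjusted p = 0.0115 by edgeR and RRA) and 88 genes depleted and 84 enriched between the lines. Where a sample was left out, the lone sample of its group was assumed to vary like the others.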

Other observations

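Guides to 1 gene sometimes moved in opposite directions between the lines, in examples chosen after their values were seen. The CHD2 guide HZD_EPI_01170 had counts of 180 and 222 in SETD2-mutant cells and 666 and 740 in parental cells, and changed by −1.53. The CHD2 guide HZD_EPI_01167 had counts of 515 and 730 in SETD2-mutant cells and 377 and 359 in parental cells, and changed by 1.03. Both passed on their own (adjusted p = 0.00101 and 0.00221 by edgeR).

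The BAZ1A guide HZD_EPI_00629 had counts of 296 and 371 in SETD2-mutant cells, 168 and 92 in parental cells and 606 and 541 in the library, so that it was lost in parental cells (−2.11) and less so in SETD2-mutant cells (−0.45). The BAZ1B guide HZD_EPI_00636 had counts of 363 and 340 in SETD2-mutant cells, 1723 and 1354 in parental cells and 1467 and 1315 in the library, with changes from library of −1.63 in SETD2-mutant and 0.19 in parental cells.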
